A study of Mus musculus with 12 samples.

Results

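The axon guidance ligands and receptors are the semaphorins with their plexin and neuropilin receptors, the netrins with their Unc5 receptors, the Slits with their Robo receptors, and the ephrins with their Eph receptors. They were chosen by gene symbol, which found 63 members among 23586 genes. Of these, 56 reached 10 normalized counts in at least 3 of 12 libraries and were among the 14580 genes tested. The 7 below that floor were Epha10, Robo3, Slit3, Unc5d, Efnb3, Sema3g and Sema4g. The 56 tested members form 11 families: 17 semaphorins, 9 plexins, 2 neuropilins, 4 netrins, 3 Unc5 receptors, 2 Slits, 2 Robo receptors, 5 ephrin-As, 2 ephrin-Bs, 5 EphA and 5 EphB receptors.

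RNA was sequenced in bulk from mouse muscle stem cells, which repair skeletal muscle after injury, all of the genotype Pax3nLacZ-IRES-GFP, whose GFP reports the Pax3 locus. Cells sorted as GFP-positive, labelled PAX3-positive, or as GFP-negative, labelled PAX3-negative, were cultured in 20% serum with 4 ng/mL basic FGF. They received 2 µg of pCR3-Six2, which carries the mouse Six2 cDNA, or of the empty pCR3 plasmid. Each of the 4 groups had 3 libraries from at least 50000 cells per sample. The labels give no age, and nothing in them ties the 3 libraries per group to different animals or cultures. Every p-value below then rests on the spread between these libraries alone, which may be technical.

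Guidance cues were named for steering growing axons, and they act on many other migrating cells. Secreted class 3 semaphorins bind a neuropilin, which signals through a plexin, whereas other semaphorins bind plexins directly. Netrins bind Dcc-type and Unc5 receptors, Slits bind Robo receptors, and membrane-bound ephrins signal to Eph tyrosine kinases on a touching cell and can signal back into their own cell. In muscle, Sema3a secreted by muscle stem cells is known as a cue to motor nerve endings, and Slit-Robo and ephrin-Eph pairs are known to guide migrating muscle precursors.

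Six2 transcripts gave no check of the plasmid label, and Pax3 transcripts gave none of the GFP label. Six2 had 2 to 36 reads per library and differed by 0.80 (adjusted p = 0.421) in GFP-negative and 1.26 (adjusted p = 0.209) in GFP-positive cells, both as log2 differences of the SIX2 from the control label with limma-trend. Pax3 differed by -0.01 on the log2 scale between GFP labels under the control plasmid (limma-trend adjusted p = 0.991). Groups are therefore called by their labels below. In units of 1e6 reads, GFP-negative libraries held 12.4 to 33.2 under the control and 34.0 to 40.2 under the SIX2 label. GFP-positive libraries held 31.3 to 47.3 and 12.6 to 15.5. All 10 listed myogenic markers were in the table, and their sum moved with the plasmid label. It was 304728 to 323018 normalized counts under the control and 214601 to 241365 under the SIX2 label in GFP-negative cells, and 308042 to 329249 against 262129 to 291790 in GFP-positive cells. Des and Myog made up most of this sum, and Des was at 152872 to 183827 against 97424 to 113013 in GFP-negative cells. Others of the list were higher under the SIX2 label. Myf5 was at 1420 to 1755 against 3472 to 4657 in GFP-negative and 1684 to 1843 against 2610 to 3221 in GFP-positive cells. Vcam1 was at 389 to 476 against 1003 to 1286, and 290 to 369 against 889 to 1111. Pax7 was at 82.5 to 148 against 161 to 164, and 85.2 to 109 against 159 to 184. In these bulk libraries, fewer cells of a type and less RNA per cell cannot be told apart.

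Markers listed for other cells ranged from near 0 to high levels, and some moved with the plasmid label. The 7 of 10 fibro-adipogenic markers in the table summed to 41.3 to 55.7 normalized counts in GFP-negative control libraries and 92.6 to 94.2 in GFP-negative SIX2 libraries. In GFP-positive cells they summed to 33.7 to 86.1 under the control and 69.7 to 85.7 under the SIX2 label, and Dcn, Pi16 and Col15a1 were under 10 in all libraries. Of this list Ly6a was at 6.57 to 10.7 against 26.4 to 39.1 in GFP-negative cells, while Pdgfra, at 5.63 to 10.7 against 0 to 16.5, overlapped. In GFP-positive cells Ly6a was at 2.53 to 7.20 against 23.4 to 32.2, and Pdgfra, at 7.65 to 27.0 against 3.90 to 11.4, overlapped. The 7 of 10 tenocyte markers summed to 3025 to 3263 and 3306 to 3660 in the GFP-negative and GFP-positive control libraries, and to 1975 to 2171 and 2087 to 2528 under the SIX2 label. Egr1, at 1264 to 1886 over all libraries, made up the largest part. Cilp2 was at 831 to 850 against 159 to 222 in GFP-negative and 1033 to 1253 against 241 to 303 in GFP-positive cells. Mkx was higher under the SIX2 label, at 15.0 to 35.7 against 63.2 to 103, and 35.2 to 64.1 against 73.2 to 109. Fmod was at 45.4 to 71.9 against 75.0 to 97.7 in GFP-positive cells and overlapped in GFP-negative cells. The 7 of 10 Schwann cell markers summed to 3933 to 4660 and 3958 to 4647 under the control label, and to 2236 to 2980 and 2899 to 3372 under the SIX2 label, with Cdh19 and S100b under 10 in all libraries. The 8 of 10 neuron markers summed to 701 to 963 over all libraries, and Snap25, Elavl3, Elavl4, Nefl and Nefm were under 10 in each of them. Tubb3 made up most of that sum, at 557 to 868. Stmn2 was lower under the SIX2 label, at 141 to 158 against 62.8 to 77.1 in GFP-negative and 185 to 234 against 64.3 to 97.7 in GFP-positive cells. Map2 was at 7.65 to 20.2 against 24.4 to 30.4 in GFP-positive cells and overlapped in GFP-negative cells. The 9 of 10 endothelial markers summed to 55.9 to 159, with Cdh5, Kdr, Esam and Cldn5 under 10 throughout. Vwf was lower under the SIX2 label, at 61.0 to 109 against 16.8 to 30.7 in GFP-negative and 64.1 to 110 against 29.2 to 51.8 in GFP-positive cells. Egfl7 was at 16.1 to 19.4 against 45.6 to 89.3 in GFP-positive cells and overlapped in GFP-negative cells. Macrophage markers, 6 of 10 in the table, summed to 30.1 to 90.9. Csf1r was higher under the SIX2 label, at 2.14 to 10.3 against 13.8 to 38.6, and 1.66 to 11.5 against 17.9 to 26.8. Cd14 was at 11.1 to 15.0 against 16.4 to 27.0 in GFP-negative cells and overlapped in GFP-positive cells, and Cd68 overlapped in both. The 9 of 10 pericyte or smooth muscle markers summed to 49360 to 59459. Acta2 made up most of this last sum, at 46997 to 57657. Others of that list were higher under the SIX2 label: Notch3 was at 73.7 to 137 against 208 to 352 normalized counts in GFP-negative and 84.1 to 105 against 239 to 314 in GFP-positive cells. Cnn1 was at 10.3 to 30.0 against 50.1 to 80.0, and 13.8 to 38.2 against 42.9 to 75.0. Pdgfrb was at 187 to 207 against 318 to 407 in GFP-positive cells and overlapped in GFP-negative cells. The part of these cells in the differences below was not tested.

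Promoter sequences are shown for 3 members that rose and 1 that fell under the SIX2 label in both sorted populations, since members that move together may be compared there for shared letters. Each run is the 250 bases upstream of a RefSeq transcript start in GRCm38.p6, 5′ to 3′ on the gene's strand, and capitals mark the E-box CAGCTG, the letters bound by myogenic regulatory factors. The windows are chr8:128358823-128359072 on the plus strand for Nrp1, chr5:13396534-13396783 plus for Sema3a, chr8:8661243-8661492 minus for Efnb2 and chrX:73756853-73757102 plus for Plxnb3. The Nrp1 and Sema3a windows lie inside the GENCODE gene spans but on no exon, the Efnb2 window lies on no exon, and 13 bases of the Plxnb3 window lie on an exon.
Nrp1: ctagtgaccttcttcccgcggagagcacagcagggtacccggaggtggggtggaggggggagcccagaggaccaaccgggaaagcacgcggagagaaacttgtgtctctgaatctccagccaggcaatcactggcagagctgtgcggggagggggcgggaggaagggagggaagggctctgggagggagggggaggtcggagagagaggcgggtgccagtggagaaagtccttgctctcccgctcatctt
Sema3a: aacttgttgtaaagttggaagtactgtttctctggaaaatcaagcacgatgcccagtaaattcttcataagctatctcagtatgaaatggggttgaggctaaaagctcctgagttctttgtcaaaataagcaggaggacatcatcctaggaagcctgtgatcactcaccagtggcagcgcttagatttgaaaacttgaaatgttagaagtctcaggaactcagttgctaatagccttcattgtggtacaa
Efnb2: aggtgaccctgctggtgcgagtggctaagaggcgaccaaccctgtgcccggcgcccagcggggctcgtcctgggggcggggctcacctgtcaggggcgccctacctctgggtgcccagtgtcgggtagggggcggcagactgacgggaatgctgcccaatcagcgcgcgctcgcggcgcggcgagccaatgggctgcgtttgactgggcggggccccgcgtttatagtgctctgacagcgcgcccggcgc
Plxnb3: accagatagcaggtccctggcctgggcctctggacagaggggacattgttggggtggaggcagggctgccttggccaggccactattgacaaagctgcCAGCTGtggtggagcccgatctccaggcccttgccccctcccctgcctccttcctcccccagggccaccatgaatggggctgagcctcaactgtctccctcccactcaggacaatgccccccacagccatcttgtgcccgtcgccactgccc

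Of the 56 tested members, 49 had a RefSeq promoter, 65 promoters in all. Both strands were searched for CAGCTG and for TCAGGTTNC, the core of the MEF3 site known for binding Six4 and its relatives, and the 2 patterns do not overlap in letters. The MEF3 core was found in 0 of the 65 promoters, against 350 of all 32817 promoters of that length (1.07%). CAGCTG was in 7 of the 65 (10.8%), against 4268 of 32817 (13%). Of the 9 members higher in both populations, 7 had a promoter and 0 of these held CAGCTG. Of the 5 members lower in both, 4 had a promoter and 1, that of Plxnb3, held it, at 152 bases before the start. These letter matches describe the windows only.

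Levels spanned a wide range, and each family held members at different levels. Per kilobase of exon and averaged over the 12 libraries, Plxnb2, a receptor for class 4 semaphorins, was highest at 377 normalized counts per kilobase. Sema3b, a secreted semaphorin, followed at 255, then the ephrin receptor Ephb3 at 188 and Sema3e, a ligand of Plxnd1, at 153. Epha2 at 138, Sema4d at 133, Efnb1 at 117 and Plxna1 at 106 were the other members above 100 per kilobase. A further 30 members lay between 10 and 100, and 18 at 10 or less.

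The order among the highest members depended on the group. In the GFP-negative control group Plxnb2 was at 388 ± 46.4 per kilobase (SD, n = 3), Ephb3 at 359 ± 5.64 and Sema3b at 330 ± 41.0, so that these neighbours lay within their spread. In the GFP-negative SIX2 group Plxnb2 was at 370 ± 47.6, Sema3b at 152 ± 25.2 and Ephb3 at 104 ± 5.83 per kilobase, and the 3 were apart from each other. Other members had means near or between those of Sema3b and Ephb3 in that group. Sema3e was at 153, Efnb1 at 146, Epha2 at 131, Plxna1 at 122 and Sema4d at 103 per kilobase. The highest member of the other families, per kilobase, was Efna2 at 76.0, Unc5b at 42.8, Nrp1 at 39.6, Ntn5 at 29.6, Slit1 at 15.5 and Robo1 at 14.0.

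**Figure D1:**
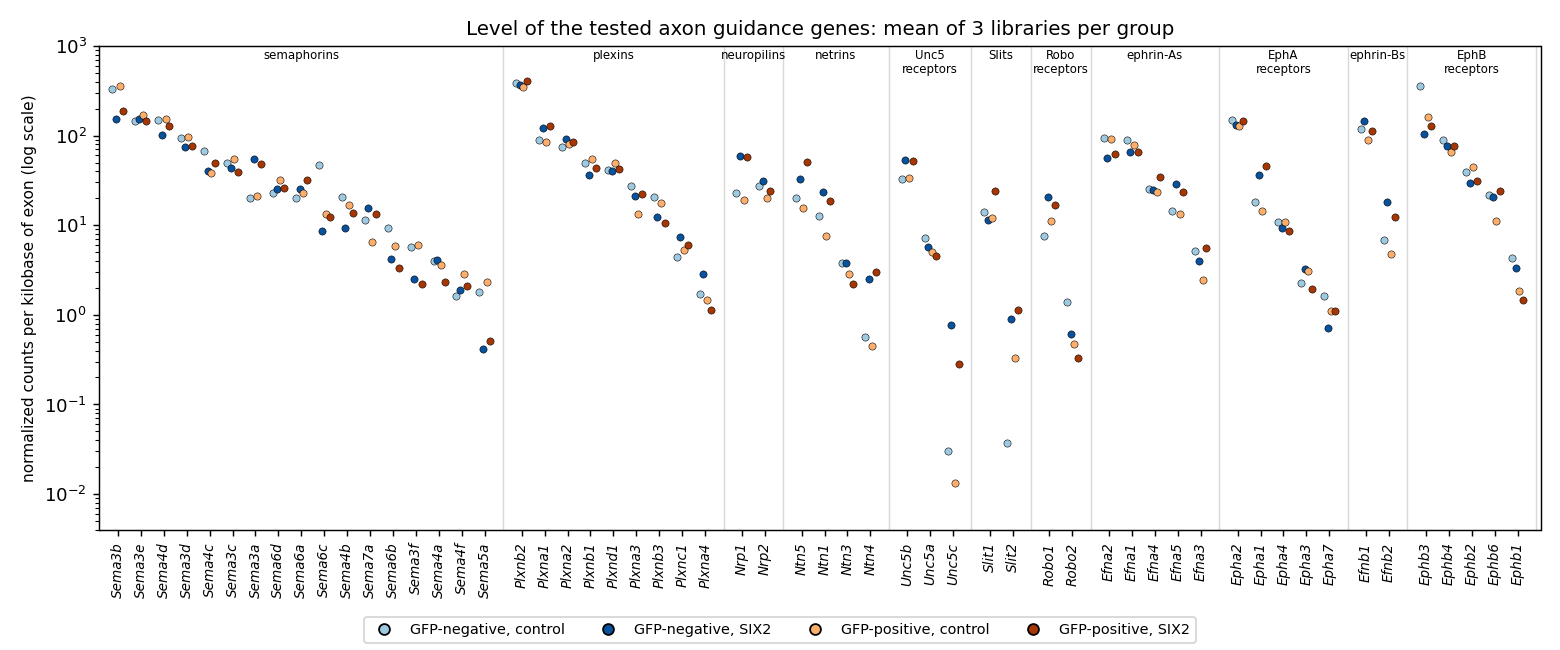
Mean level of each tested member in normalized counts per kilobase of exon (log axis), by family, with 1 point for each of the 4 groups (3 libraries each). Plxnb2, Sema3b and Ephb3 lead, at 377, 255 and 188 per kilobase over all libraries, and 18 members lie at 10 or less.

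The first question of the design is what the SIX2 label changes in each sorted population. In GFP-negative cells 19 of the 56 members (33.9%) passed limma-trend's test at an adjusted p under 0.05, where 27.9% of all tested genes did. Of these members 10 were higher and 9 lower under the SIX2 label, where 13.6% and 14.3% of all tested genes were. In GFP-positive cells 20 of 56 (35.7%) passed, where 23.3% of all tested genes did, with 14 higher and 6 lower against 12.1% and 11.2%. The median log2 difference was -0.07 and -0.06 over the members and 0.0046 and -0.0070 over all tested genes.

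The populations shared 14 of these calls, each in the same direction. Nrp1, Sema3a, Plxna1, Robo1, Efnb2, Efna5, Epha1, Unc5b and Ntn1 rose, and Sema3b, Efna2, Ephb2, Plxnb3 and Sema5a fell in both. The 14 are 73.7% of the members called in GFP-negative and 70% of those called in GFP-positive cells. For all tested genes, the shared calls numbered 2002, 49.1% and 59% of the calls in each population. No member was called in opposite directions, 25 were called in at least 1 population, and 31 in neither.

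**Figure D2:**
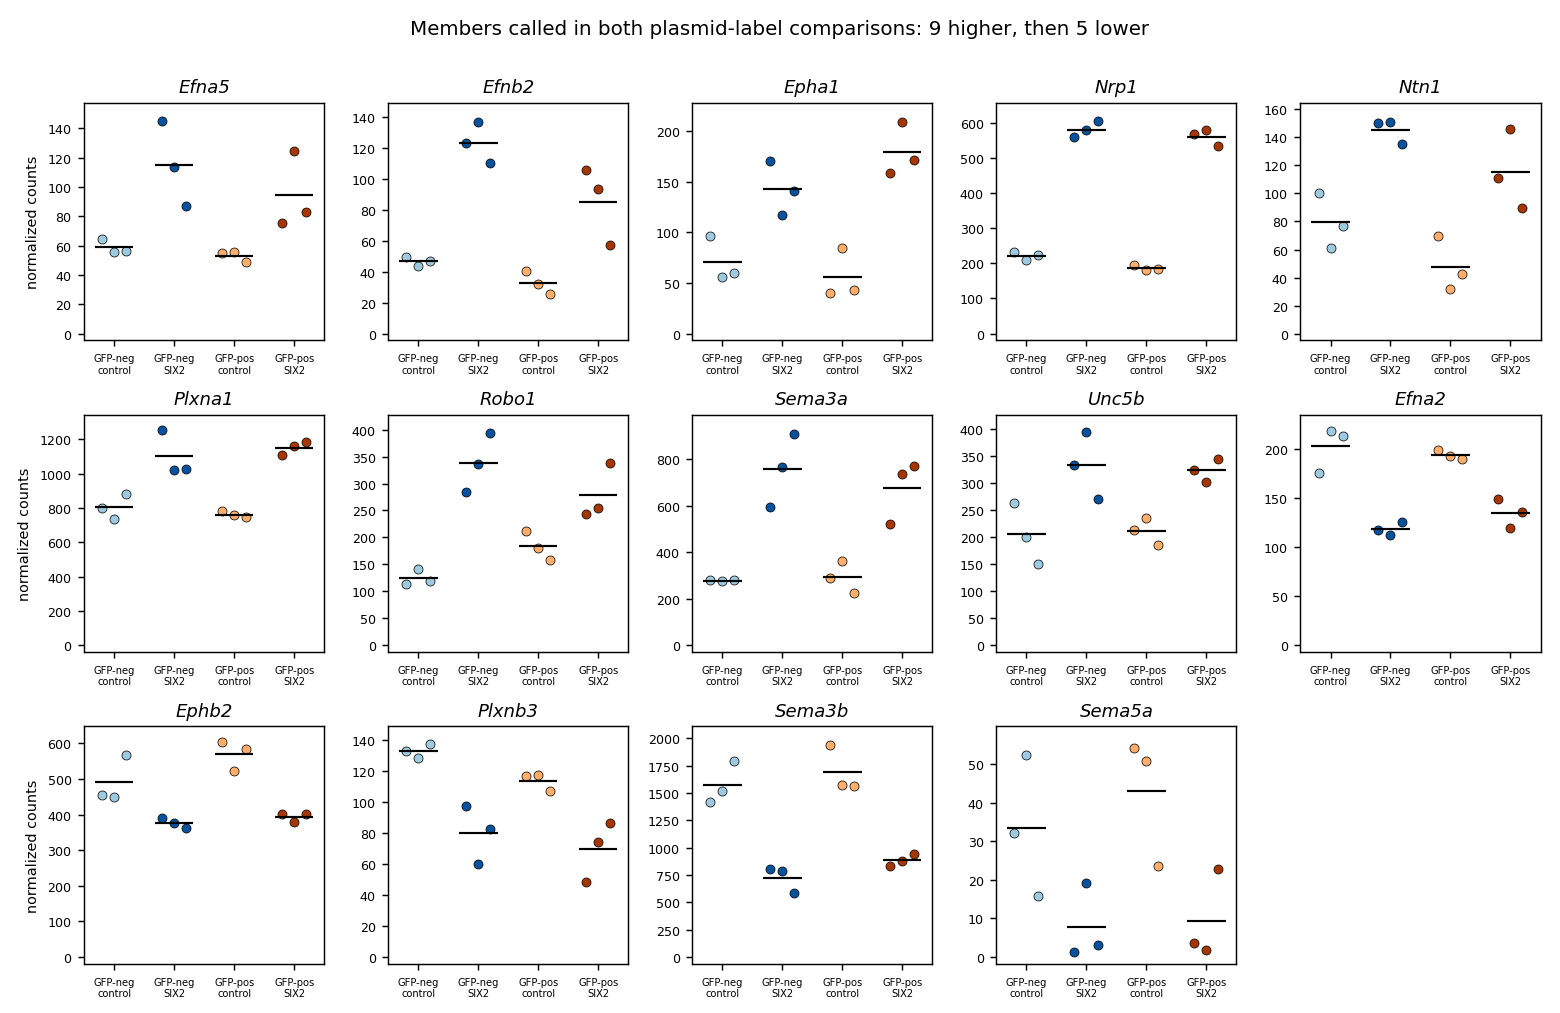
Normalized counts (linear axis from 0) in each library of the 4 groups, 1 point per library with a bar at the group mean, for the 14 members called in both plasmid-label comparisons. The first 9 panels are higher and the last 5 lower under the SIX2 label, and Nrp1 keeps the groups apart, at 182 to 231 against 534 to 605.

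The neuropilin Nrp1, the binding subunit of the receptor for Sema3a, gave the smallest p of all members in both populations. Its gene spans chr8:128358604-128503363 (GRCm38, plus strand). In GFP-negative cells it had 231, 209 and 225 normalized counts under the control label and 559, 579 and 605 under the SIX2 label. The GFP-positive libraries held 194, 182 and 184 against 568, 579 and 534. Every SIX2-labelled library was above every control library. The log2 difference was 1.38 ± 0.10 (SE, limma-trend adjusted p = 2.56e-06) and 1.58 ± 0.10 (adjusted p = 9.17e-07). Per kilobase it went from 22.7 to 59.4 in GFP-negative and from 19.1 to 57.3 in GFP-positive cells.

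The other neuropilin, Nrp2, which binds Sema3c and Sema3f, was not called. It had 349, 297 and 328 against 419, 339 and 351 normalized counts in GFP-negative cells, and 221, 280 and 205 against 289, 255 and 314 in GFP-positive cells. The groups overlapped in both populations, and the log2 differences were 0.18 (95% interval -0.13 to 0.50; limma-trend adjusted p = 0.392) and 0.29 (-0.02 to 0.60; adjusted p = 0.18).

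Sema3a, the secreted ligand of Nrp1, rose as well. Its gene spans chr5:13125414-13602565 on the plus strand. It had 278, 276 and 280 normalized counts in GFP-negative control libraries and 596, 765 and 909 in GFP-negative SIX2 libraries. Its GFP-positive values were 289, 363 and 224 against 520, 735 and 769. The groups did not overlap in either population. The log2 difference was 1.42 ± 0.19 (SE, limma-trend adjusted p = 0.000159) in GFP-negative and 1.21 ± 0.19 (adjusted p = 0.000611) in GFP-positive cells.

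Plxna1, the plexin that carries the signal of neuropilin-bound semaphorins, completes that receptor complex and rose too. It had 801, 738 and 882 against 1254, 1024 and 1030 normalized counts in GFP-negative cells. Among GFP-positive libraries it had 781, 757 and 746 against 1109, 1163 and 1185. The groups overlapped in neither population, with log2 differences of 0.45 ± 0.10 (SE, limma-trend adjusted p = 0.0037) and 0.60 ± 0.10 (adjusted p = 0.000612). Exons of Gm26811 on the opposite strand share 970 bases with it, and this library protocol does not mark strand, so reads there cannot be told apart.

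Other class 3 semaphorins went differently. Sema3b, the second highest member per kilobase, fell: it had 1414, 1519 and 1793 normalized counts in GFP-negative control and 804, 783 and 585 in GFP-negative SIX2 libraries. GFP-positive cells gave 1941, 1569 and 1562 against 836, 879 and 946. The groups did not overlap, and the log2 differences were -1.13 ± 0.13 (SE, limma-trend adjusted p = 5.38e-05) and -0.92 ± 0.13 (adjusted p = 0.000261). Sema3e, close to it in level, was not called, with 1232 to 1417 normalized counts in GFP-negative control and 1315 to 1502 in GFP-negative SIX2 libraries, a log2 difference of 0.08 (95% interval -0.15 to 0.32). Sema3d differed by -0.36 on the log2 scale in both populations without passing the test (limma-trend adjusted p = 0.0548 and 0.0609), and Sema3c by -0.22 and -0.52 (adjusted p = 0.504 and 0.108).

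Of the B-type plexins, Plxnb3, a receptor of Sema5a, fell while the highest member, Plxnb2, was not called. Plxnb3 had 133, 128 and 137 against 97.1, 59.9 and 82.4 normalized counts in GFP-negative cells, and 116, 117 and 107 against 48.2, 74.0 and 86.3 in GFP-positive cells. SIX2 and control libraries were apart in both, with log2 differences of -0.75 ± 0.24 (SE, limma-trend adjusted p = 0.0305) and -0.74 ± 0.24 (adjusted p = 0.0375). Plxnb2 had 2714 to 3397 against 2450 to 3168 normalized counts in GFP-negative and 2460 to 2758 against 2975 to 3401 in GFP-positive cells. Its log2 difference was -0.07 and 0.24 (limma-trend adjusted p = 0.665 and 0.124). Sema5a, a transmembrane semaphorin, was low and uneven: 32.1, 52.3 and 15.9 against 1.43, 19.1 and 3.01 normalized counts in GFP-negative cells, where the groups overlapped. The GFP-positive libraries held 54.3, 50.9 and 23.6 against 3.57, 1.95 and 22.8, just apart. Its log2 differences, -2.42 ± 0.86 and -2.59 ± 0.86, stood next to the threshold (limma-trend adjusted p = 0.0499 and 0.0425).

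Among the netrins and their receptors, Ntn1 and Unc5b rose together. Ntn1, the classical secreted netrin, had 101, 61.0 and 76.9 against 151, 151 and 135 normalized counts in GFP-negative cells. Its GFP-positive values were 69.6, 31.5 and 42.2 against 111, 146 and 89.6. The groups were apart in both, with log2 differences of 0.89 ± 0.29 (SE, limma-trend adjusted p = 0.0352) and 1.30 ± 0.29 (adjusted p = 0.00566). Unc5b, a repulsive netrin receptor and the highest of its family, had 263, 201 and 151 against 333, 394 and 271 in GFP-negative cells. Among GFP-positive libraries it had 213, 235 and 185 against 323, 302 and 345. The groups were again apart, with log2 differences of 0.71 ± 0.20 (limma-trend adjusted p = 0.0148) and 0.62 ± 0.20 (adjusted p = 0.0341).

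Robo1, a receptor for Slits, rose in both populations. It had 114, 141 and 119 against 284, 336 and 393 normalized counts in GFP-negative cells, 1.43 ± 0.18 apart on the log2 scale (SE, limma-trend adjusted p = 8.15e-05). GFP-positive cells gave 211, 181 and 159 against 243, 255 and 339, a difference of 0.60 ± 0.18 (adjusted p = 0.0273). The groups did not overlap, and the GFP-positive control libraries were above the GFP-negative ones. Robo2 had 19.7 to 30.0 against 0 to 22.4 normalized counts in GFP-negative and 6.88 to 10.1 against 1.79 to 13.0 in GFP-positive cells, and was not called (log2 differences of -2.00 and -0.88; limma-trend adjusted p = 0.142 and 0.565).

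The ephrins split by member. Efnb2, a transmembrane ephrin that binds EphB receptors and Epha4, rose from 49.3, 43.6 and 46.9 to 123, 136 and 110 normalized counts in GFP-negative cells. The GFP-positive libraries held 40.5, 32.1 and 25.3 against 105, 93.5 and 57.0. No groups overlapped, with log2 differences of 1.38 ± 0.27 (SE, limma-trend adjusted p = 0.00182) and 1.34 ± 0.27 (adjusted p = 0.00278). Efna5, a lipid-anchored ephrin, also rose: it had 64.3, 55.5 and 56.3 against 145, 113 and 87.2 in GFP-negative, and 55.1, 55.3 and 48.9 against 75.0, 125 and 83.0 in GFP-positive cells. Its log2 differences were 0.93 ± 0.25 (limma-trend adjusted p = 0.0123) and 0.78 ± 0.25 (adjusted p = 0.0342). Efna2, of the same class, fell from 176, 218 and 213 to 117, 112 and 126 in GFP-negative cells and was at 198, 193 and 190 against 148, 119 and 135 in GFP-positive cells. The Efna5 and Efna2 groups did not overlap, and Efna2 differed by -0.76 ± 0.15 (limma-trend adjusted p = 0.00216) and -0.53 ± 0.15 (adjusted p = 0.0213).

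Of the Eph receptors, Epha1 rose and Ephb2 fell in both populations. Epha1 had 96.4, 55.5 and 60.0 against 170, 117 and 141 normalized counts in GFP-negative cells, and 40.5, 84.7 and 43.0 against 159, 208 and 171 in GFP-positive cells. SIX2 and control libraries were apart, with log2 differences of 1.03 ± 0.30 (SE, limma-trend adjusted p = 0.0193) and 1.73 ± 0.30 (adjusted p = 0.000913). Exons of Zyx on the opposite strand share 236 bases with it, so its reads there cannot be told from those of Zyx. Ephb2, a receptor of ephrin-Bs, had 454, 450 and 567 against 390, 376 and 362 in GFP-negative, and 604, 521 and 583 against 402, 378 and 402 in GFP-positive cells. Its groups did not overlap either, and the log2 differences were -0.38 ± 0.11 (limma-trend adjusted p = 0.0237) and -0.53 ± 0.11 (adjusted p = 0.00417). Epha2, the highest EphA receptor, had 637 to 795 against 529 to 670 normalized counts in GFP-negative and 582 to 606 against 653 to 706 in GFP-positive cells, and was not called (limma-trend adjusted p = 0.218 and 0.264).

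In GFP-negative cells 12 of the 19 calls held under every alternative to the test that gave a value, 24 in number and 23 for Slit2, which a filter of 10 in every library left out. These were Efna2, Efnb2, Ephb3, Nrp1, Plxna1, Robo1, Sema3a, Sema3b, Sema4b, Sema4d, Sema6c and Slit2. Of the other calls there, leaving out 1 library ended that of Efna5 (without SIX2 replicate 1, limma-trend adjusted p = 0.0583) and Unc5b (without control 3 or SIX2 2, 0.0678 and 0.0716). The same held for Ephb2 (without control 3, SIX2 2 or SIX2 3, 0.0601 to 0.109), and for Epha1 (control 2 or 3, SIX2 1 or 3, 0.0513 to 0.0796). It held for Ntn1 (any of its 6 libraries but control 1, 0.0664 to 0.138) and Plxnb3 (any but SIX2 1, 0.0589 to 0.127). The Sema5a call ended without any of the 6 but SIX2 2, and without any GFP-positive control library, at limma-trend adjusted p of 0.0511 to 0.175. Other settings ended calls too: no filter on low values those of Ntn1, Plxnb3 and Sema5a (limma-trend adjusted p of 0.0558 to 0.0781), and quantile scaling that of Ntn1 (0.0572). Sema5a also lost its call with a pseudocount of 0.5, TMM scaling or a GC trend removed (limma-trend adjusted p of 0.0504 to 0.0520), and with edgeR (0.0807). Removal of the GC trend ended that of Ephb2 as well (limma-trend adjusted p = 0.0530).

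In GFP-positive cells 9 of the 20 calls held under all 24 alternatives: Efnb2, Epha1, Ephb2, Nrp1, Ntn1, Ntn5, Plxna1, Sema3a and Sema3b. Leaving out 1 library ended the calls of Slit1 (control 2 or SIX2 1, limma-trend adjusted p = 0.0616 and 0.0850) and Ephb6 (control 1 or SIX2 2, 0.0587 and 0.0521). It ended those of Efna2 (control 1, control 2 or SIX2 2, 0.0517 to 0.0771), Robo1 (control 2, control 3 or SIX2 3, 0.0657 to 0.106) and Plxna3 (control 1, SIX2 2 or SIX2 3, 0.0566 to 0.101). It also ended those of Ntn4 (control 2, SIX2 1 or SIX2 3, 0.0539 to 0.0594), Efna5 (any control or SIX2 2, 0.0645 to 0.141) and Unc5b (any of the 6 but control 2, 0.0585 to 0.110). The Plxnb3 call ended without 7 of the 12 libraries (all 3 GFP-positive controls, GFP-positive SIX2 1 and 2, GFP-negative control 1 and 2; 0.0501 to 0.142). That of Sema5a ended without 6 (GFP-positive control 1 and 2, GFP-positive SIX2 1 and 2, GFP-negative control 1 and 2; 0.0528 to 0.154). That of Sema3f ended without any but GFP-negative control 3 and GFP-positive SIX2 1 (0.0536 to 0.161). A fit of only the compared libraries ended the calls of Efna2, Efna5, Plxna3, Plxnb3, Robo1, Sema3f, Sema5a and Slit1 (limma-trend adjusted p of 0.0536 to 0.110). Quantile scaling ended those of Efna5, Plxna3, Robo1, Sema5a and Unc5b (0.0544 to 0.0897), and no filter those of Efna5, Plxnb3, Sema3f and Sema5a (0.0668 to 0.0856). Library weights ended those of Plxnb3 and Unc5b (limma-trend adjusted p = 0.0556 and 0.0620). On the recovered reads Sema3f and Sema5a were not called by edgeR (adjusted p = 0.0930 and 0.107) or by DESeq2 (0.0609 and 0.0501). No call of a member changed sign under any of the 24 alternatives.

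**Figure D3:**
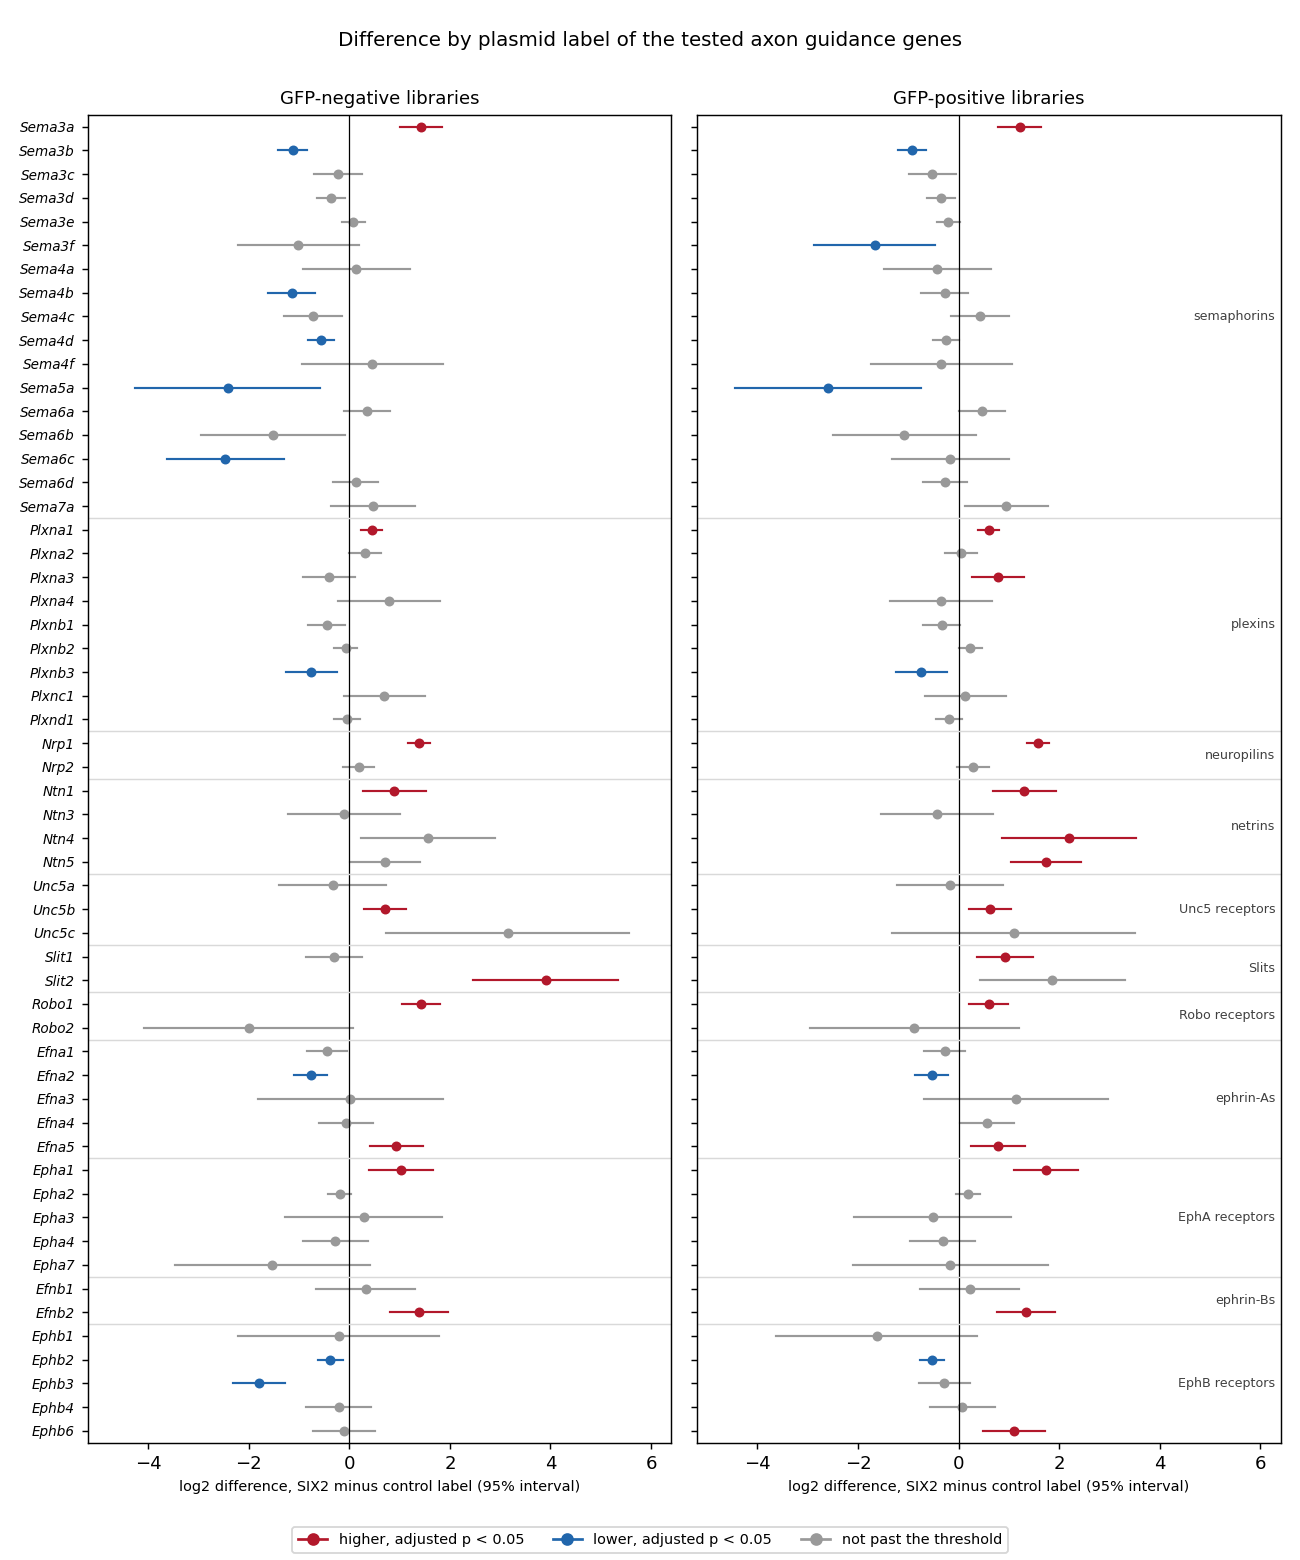
Log2 difference of the SIX2 from the control label, on the log2(normalized count + 1) scale, for each of the 56 tested members grouped by family, in GFP-negative (left) and GFP-positive libraries (right). Points are estimates and lines 95% intervals, red where called higher, blue where called lower, grey otherwise; Nrp1 stands at 1.38 and 1.58 and Sema3b at -1.13 and -0.92.

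The design then asks whether the plasmid label goes with different changes in the sorted populations. Here 5 members passed the test in GFP-negative cells alone (Ephb3, Sema6c, Sema4b, Sema4d and Slit2) and 6 in GFP-positive cells alone (Ntn5, Ntn4, Slit1, Ephb6, Plxna3 and Sema3f). These are 8.93% and 10.7% of the members, beside 14.2% and 9.55% of all tested genes. The test of the difference itself, the interaction, called 0 of the 56 members with limma-trend, where it called 0% of all tested genes. At an unadjusted p under 0.05 it had 10 members (17.9%), beside 16.7% of all tested genes, and the members' smallest adjusted p was 0.0988. The quasi-likelihood test of edgeR on the recovered reads called 0 as well, and DESeq2 called 2, Ephb3 and Plxna3. A call in 1 population alone is therefore not a called difference between the populations.

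Ephb3, an ephrin-B receptor, had the smallest interaction p of the members. It had 2399, 2410 and 2340 normalized counts in GFP-negative control libraries and 675, 733 and 660 in GFP-negative SIX2 libraries. Its GFP-positive values were 705, 883 and 1645 against 1079, 795 and 663. The GFP-negative control libraries stood above all the other 9, and the GFP-positive groups overlapped. The log2 difference was -1.79 ± 0.24 (SE, limma-trend adjusted p = 0.000124) in GFP-negative and -0.28 ± 0.24 (adjusted p = 0.439) in GFP-positive cells, an interaction of 1.51 ± 0.34 (adjusted p = 0.0988). Without GFP-positive control replicate 3, the library at 1645, limma-trend called the interaction (adjusted p = 0.0139).

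Sema6c, a transmembrane semaphorin that binds A-type plexins, showed the same layout. It had 285, 276 and 271 against 40.7, 44.1 and 67.4 normalized counts in GFP-negative cells. Among GFP-positive libraries it had 41.3, 43.7 and 150 against 139, 52.6 and 26.1, with overlap. The log2 difference was -2.46 ± 0.54 (SE, limma-trend adjusted p = 0.00405) and -0.16 ± 0.54 (adjusted p = 0.867), and the interaction 2.30 ± 0.76 (adjusted p = 0.17).

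Class 4 semaphorins, membrane-bound ligands of B- and D-type plexins, gave the other calls of GFP-negative cells. Sema4b had 116, 101 and 130 against 58.5, 44.1 and 53.5 normalized counts there, and 88.7, 79.7 and 116 against 89.3, 70.1 and 73.3 in GFP-positive cells. Its log2 difference was -1.14 ± 0.22 (SE, limma-trend adjusted p = 0.00165) and -0.28 ± 0.22 (adjusted p = 0.403). Sema4d, the ligand of Plxnb1, had 1230, 1127 and 1112 against 913, 786 and 665 in GFP-negative, and 1158, 1176 and 1164 against 882, 929 and 1151 in GFP-positive cells. Both genes were apart in GFP-negative cells, and in GFP-positive cells Sema4b overlapped while the Sema4d groups lay close, at 1151 and 1158. The Sema4d log2 difference was -0.56 ± 0.12 (limma-trend adjusted p = 0.00333) and -0.25 ± 0.12 (adjusted p = 0.155).

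The Slits, secreted ligands of Robo receptors, were each called in 1 population. Slit2 had 0, 0 and 2.81 normalized counts in GFP-negative control and 22.8, 27.0 and 18.0 in GFP-negative SIX2 libraries. In reads these were 3 over the control and 103 over the SIX2 libraries, a ratio of 20.9 once scaled, with an exact 95% interval of 6.97 to 103 for counting error. GFP-positive cells gave 2.29, 12.2 and 11.0 against 33.9, 21.4 and 30.9. The groups did not overlap in either population. The log2(value + 1) difference was 3.90 ± 0.67 (SE, limma-trend adjusted p = 0.000818) in GFP-negative and 1.86 ± 0.67 (adjusted p = 0.0609) in GFP-positive cells, and the former ran from 2.24 to 4.60 over the alternatives. Of the fibro-adipogenic markers, Ly6a moved with it in both populations and Pdgfra did not, as given above, and their part was not tested. Slit1 had 75.0, 85.6 and 88.2 against 55.0, 64.5 and 85.4 in GFP-negative, with overlap, and 75.7, 65.3 and 75.1 against 200.1, 133 and 97.7 in GFP-positive cells, without. Its log2 difference was -0.30 ± 0.26 (limma-trend adjusted p = 0.435) and 0.92 ± 0.26 (adjusted p = 0.0193).

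Of the netrins, Ntn5 and Ntn4 passed the test in GFP-positive cells only. Ntn5, a secreted netrin relative, had 37.5, 18.3 and 47.2 against 143, 99.4 and 91.2 normalized counts there, without overlap, and 51.4, 37.3 and 44.1 against 62.1, 73.8 and 83.0 in GFP-negative cells. Its log2 difference was 1.74 ± 0.33 (SE, limma-trend adjusted p = 0.00184) in GFP-positive and 0.71 ± 0.33 (adjusted p = 0.124) in GFP-negative cells. Sec1 exons on the opposite strand share 519 bases with Ntn5, and reads there cannot be told apart. Ntn4, a basement membrane netrin, was low, with 2.29, 1.11 and 1.69 against 12.5, 9.74 and 11.4 in GFP-positive and 2.14, 2.38 and 1.88 against 5.00, 6.59 and 16.2 in GFP-negative cells. The SIX2-labelled libraries were higher than the control ones throughout for both genes, and Ntn4 differed by 2.20 ± 0.62 (limma-trend adjusted p = 0.0202) and 1.56 ± 0.62 (adjusted p = 0.0764).

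The remaining calls of GFP-positive cells were Ephb6, Plxna3 and Sema3f. Ephb6, an Eph receptor without kinase activity, had 29.8, 56.5 and 41.3 against 91.1, 103 and 76.5 normalized counts, and 96.4, 66.6 and 80.7 against 65.7, 60.6 and 105 in GFP-negative cells. The groups were apart in GFP-positive cells and overlapped in GFP-negative cells, with log2 differences of 1.10 ± 0.29 (SE, limma-trend adjusted p = 0.0134) and -0.10 ± 0.29 (adjusted p = 0.833). Plxna3, an A-type plexin, had 62.7, 120 and 135 against 152, 164 and 213 in GFP-positive, and 229, 212 and 214 against 175, 161 and 159 in GFP-negative cells. Its groups were apart in both, in opposite directions, with log2 differences of 0.79 ± 0.24 (limma-trend adjusted p = 0.0296) and -0.40 ± 0.24 (adjusted p = 0.242) and an interaction of 1.19 (adjusted p = 0.129). Sema3f, an Nrp2 ligand, was low, with 29.8, 28.8 and 34.6 against 21.4, 9.74 and 3.26 in GFP-positive and 32.1, 42.8 and 14.1 against 12.1, 14.5 and 12.0 in GFP-negative cells. It was apart in the former and overlapped in the latter, with log2 differences of -1.66 ± 0.56 (limma-trend adjusted p = 0.0457) and -1.01 ± 0.56 (adjusted p = 0.201).

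**Figure D4:**
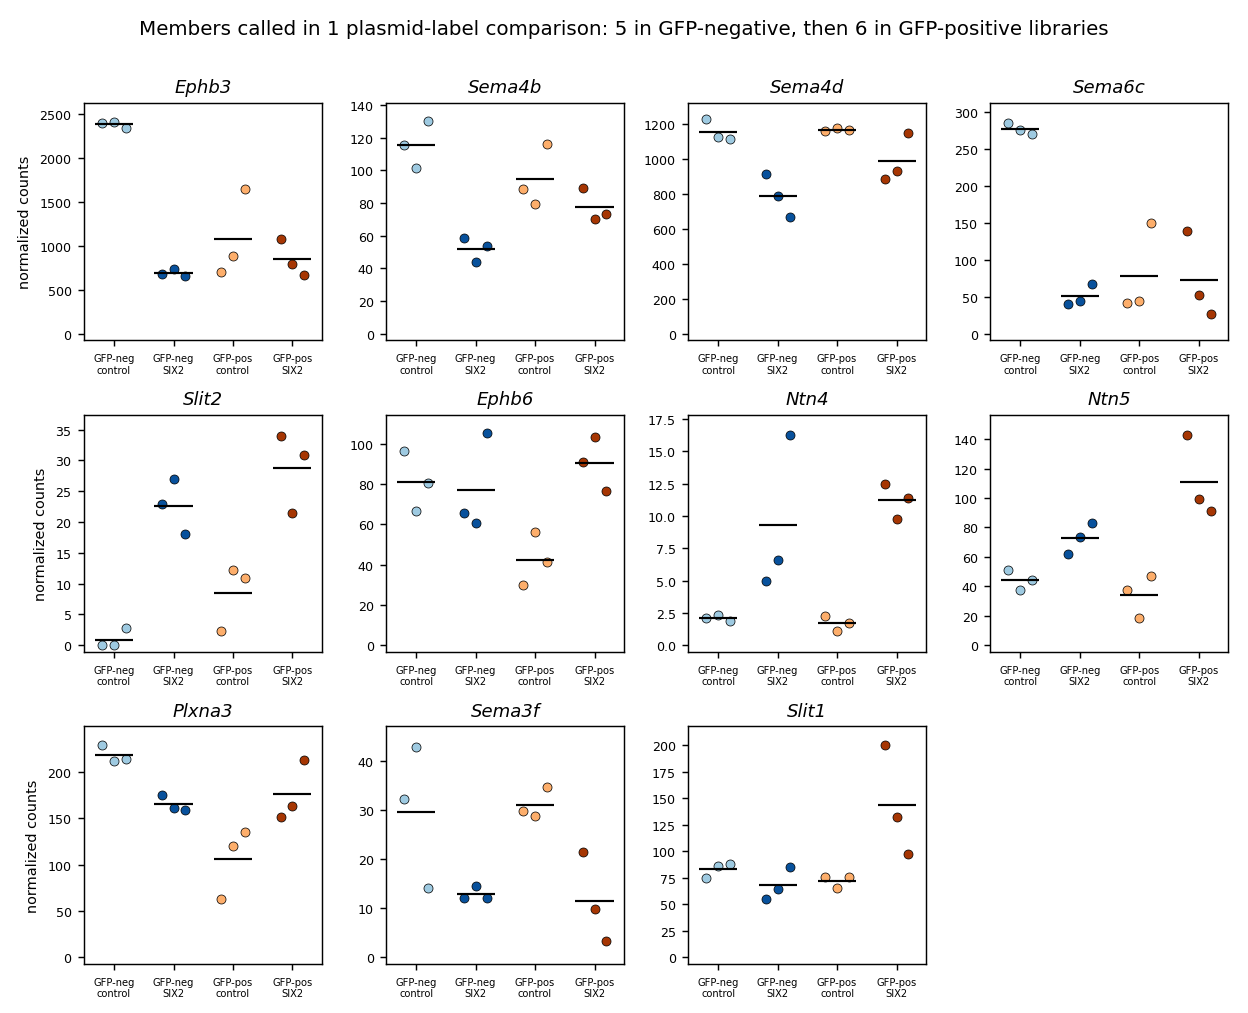
Normalized counts (linear axis from 0) in each library of the 4 groups, 1 point per library with a bar at the group mean, for the 11 members called in 1 plasmid-label comparison, the 5 of GFP-negative cells first. Ephb3 stands at 2340 to 2410 in the GFP-negative control libraries and at 660 to 1645 in the other 9.

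The design also asks how the sorted populations differ. These comparisons share libraries with those above and are not independent of them. Under the control label 2 of the 56 members (3.57%) were called, both lower in GFP-positive cells, where 3.48% of all tested genes were called and 2.56% were lower. They were Ephb3, at -1.24 ± 0.24 on the log2 scale (SE; limma-trend adjusted p = 0.0162), and Plxna3, by -1.11 ± 0.24 (adjusted p = 0.0264). In both the GFP-positive control libraries given above were all under the GFP-negative ones. Sema6c stood next to the threshold at -2.08 ± 0.54 (limma-trend adjusted p = 0.0511). Neither call held under all alternatives. Ephb3 lost its call without GFP-negative control 1, 2 or 3 or GFP-positive control 1 or 2 (limma-trend adjusted p = 0.0509 to 0.0780), and Plxna3 without GFP-negative control 1, 2 or 3 or GFP-positive control 1 (0.0717 to 0.113). Plxna3 also lost it with quantile scaling and in a fit of only the compared libraries (limma-trend adjusted p = 0.0504 and 0.0571).

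The GC content of transcripts moved with this comparison, and with that of the plasmid labels in GFP-negative cells. In 3145 genes whose most GC-rich 100 bases were at least 80% G or C, the median log2 deviation from the gene's mean was 0.0933 to 0.125 in the GFP-negative control libraries and -0.105 to 0.0401 in the other 9. That richest stretch was at 79% for Ephb3 and for Plxna3 and 84% for Sema6c. The median deviation was -0.105, -0.0291 and 0.0401 in GFP-positive control replicates 1, 2 and 3. It was 0.0121, -0.0242 and -0.0863 in the GFP-positive SIX2 replicates, and -0.0188, 0.0101 and 0.0386 in the GFP-negative SIX2 replicates. Ephb3 and Sema6c, given above, had the same order of libraries within each GFP-positive group. Plxna3 had it in the control group only. A link was not tested. With the trend in GC content removed, an alternative added after the data had been seen, Ephb3 (log2 difference -1.22, limma-trend adjusted p = 0.0148) and Plxna3 (-1.09, adjusted p = 0.0262) were still called. The same removal ended the plasmid-label calls of Ephb2, whose richest stretch was at 92%, and Sema5a, at 78%, in GFP-negative cells, as given above. It takes the same shift from all genes of similar GC content in a library, so it cannot remove a shift particular to a gene.

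Under the SIX2 label limma-trend called 0 of the 56 members between GFP labels, where 0.192% of all tested genes were called, 0.0137% higher and 0.178% lower. There were 7 members (12.5%) at an unadjusted p under 0.05, beside 13.0% of all tested genes. For members edgeR called 0 and DESeq2 called 1, and DESeq2 called 292 of all genes. Slit1 had the smallest p, with a log2 difference of 1.02 ± 0.26 of GFP-positive from GFP-negative cells (SE, limma-trend adjusted p = 0.122). Ephb3 differed by 0.27 ± 0.24 (adjusted p = 0.667) and Plxna3 by 0.08 ± 0.24 (adjusted p = 0.92) there.

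Genes that act with these ligands and receptors but fall outside the symbol rule were read from 5 lists of 79 genes, 69 of them tested. Under the SIX2 label 7 were higher and 22 lower in GFP-negative cells, and 10 higher and 18 lower in GFP-positive cells, beside the 13.6% and 14.3%, and 12.1% and 11.2%, of all tested genes. Ngef, the exchange factor that Epha4 activates, fell by 1.48 and 1.25 on the log2 scale (limma-trend adjusted p = 6.18e-05 and 0.000243). Srgap1, a GTPase-activating partner of Robo1, fell by 0.85 and 0.90 (adjusted p = 0.000565 and 0.000483).

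Of 12 co-receptors and adhesion partners, 1 was higher and 5 lower in GFP-negative and 2 higher and 3 lower in GFP-positive cells. Erbb2, a receptor tyrosine kinase that associates with Plxnb1, fell by 0.95 and 0.69 on the log2 scale (limma-trend adjusted p = 0.000317 and 0.00354). In GFP-negative cells the heparan sulfate carrier Gpc1 fell by 1.77 (limma-trend adjusted p = 6.18e-05). Met, the HGF receptor, which also pairs with Plxnb1, rose by 0.50 in GFP-positive cells (limma-trend adjusted p = 0.00579).

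Of 18 cytoplasmic kinases and adaptors, 0 were higher and 4 lower in GFP-negative and 1 higher and 7 lower in GFP-positive cells. Limk2, which phosphorylates cofilin, fell by 0.65 and 0.56 on the log2 scale (limma-trend adjusted p = 0.000107 and 0.000381). Of 12 cytoskeletal effectors, 2 were higher and 4 lower, and 4 higher and 5 lower. Cfl1, the actin-severing cofilin, rose by 0.58 in both populations (limma-trend adjusted p = 0.000155 and 0.000187). Dpysl2, the collapsin response mediator downstream of Sema3a, rose by 0.80 in GFP-negative cells (limma-trend adjusted p = 0.000202).

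Of 5 tested netrin receptors and related ligands, Flrt2, an Unc5 ligand, rose by 0.84 and 0.64 on the log2 scale (limma-trend adjusted p = 0.00121 and 0.00809), and 0 fell. Between GFP labels under the control plasmid, limma-trend called 1 of the 69 higher and 5 lower in the GFP-positive libraries, beside 0.919% and 2.56% of all tested genes.

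The 31 members called in neither plasmid-label comparison include some of the lowest. Unc5c, a netrin receptor, had 0, 0.793 and 0.938 against 24.3, 5.27 and 14.4 normalized counts in GFP-negative cells, or 2 against 66 reads, a scaled ratio of 20.1 with a counting interval of 5.36 to 170. Its log2(value + 1) difference of 3.15 ± 1.12 missed the threshold (SE, limma-trend adjusted p = 0.0509). In GFP-positive cells a single library, SIX2 replicate 3 at 16.3, held its reads under that label. The groups were apart in GFP-negative cells only. The 31 members ranged from -2.00 to 3.15 on the log2 scale in GFP-negative and from -1.62 to 1.14 in GFP-positive cells. A missed threshold does not show that these genes did not differ.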

How the data were processed

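RNA was sequenced from 12 libraries of cultured mouse muscle stem cells. Complementary DNA was made by SMART-Seq2 and fragmented with Tn5, per the labels' protocols, a way that does not mark strand. The submitters' processing notes name STAR 2.7.11a, RSEM 1.3.3, FastQC 0.12.1, MultiQC 1.19, DESeq2 1.42.0 and the build GRCm38, and their settings are not given in the sources used here. The authors deposited normalized counts per gene, a linear signal in which each library was divided by a size factor. Those values gave whole reads in 100% of cases within 1e-04, and 1 read was worth 0.553 to 2.14 normalized counts. GENCODE M21 matched 99.8% of the gene identifiers and gave positions and exon lengths.

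Groups were taken from the sample titles. Values were taken as log2(normalized count + 1) and tested, two-sided, with limma-trend (limma 3.58.1 in R 4.3.3), fitting 4 group means to the 12 libraries at once. Benjamini-Hochberg adjustment ran over all 14580 genes with at least 10 in at least 3 libraries, at a threshold of 0.05, in 5 comparisons. Differences on this scale understate the change of low genes. The 63 members, the gene lists and the tests were chosen with earlier results of these data known. All members called in a plasmid-label comparison are named, and of each list up to 3 genes with the smallest p were eligible. A few results by that rule are not reported here. Alternatives were pseudocounts of 0.5 and 5, other filters, TMM and quantile scaling, fits of only the compared libraries, a replicate block, library weights, edgeR 4.0.16 and DESeq2 1.42.0 on the recovered reads, and leaving out each library. Removal of a GC trend was added after the data had been seen. Replicates of each group differed beyond sampling noise (chi-square per degree of freedom 7.71 to 49.4). Intervals on reads cover counting error only.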

Additional observations from a re-analysis of the deposited data

How the results depend on the processing

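The counts of called members were recomputed under each alternative. In GFP-negative cells, 19 members were called under the SIX2 label, 15 to 22 when 1 library was left out, and 30 with library weights. In GFP-positive cells, 20 were called, 12 in a fit of only the compared libraries, and 12 to 21 when 1 library was left out, with 12 without control replicate 1 or 2. Between GFP labels under the control plasmid, 2 were called, 1 with quantile scaling, 5 with library weights, and 0 to 4 when 1 library was left out. That count was 0 without GFP-negative control 1 or 2 or GFP-positive control 1, 1 without GFP-negative control 3 or GFP-positive control 2, and 4 without GFP-positive control 3. Under the SIX2 plasmid label, 0 were called, 1 with DESeq2 (Slit1), and 0 to 1 when 1 library was left out (1, Ephb1, without GFP-positive SIX2 replicate 3). For the interaction, 0 were called, 2 with library weights (Ephb3 and Slit1), 2 with DESeq2 (Ephb3 and Plxna3), and 0 to 2 when 1 library was left out (2, Ephb3 and Sema4c, without GFP-positive control 3). Counts over all tested genes moved too. Library weights took them from 4075 to 6142 in GFP-negative cells, from 507 to 1520 between GFP labels under the control plasmid and from 0 to 282 for the interaction. Only the compared libraries took them from 3394 to 2449 in GFP-positive cells, and quantile scaling from 507 to 370. With DESeq2 they went from 28 to 292 under the SIX2 plasmid label and from 0 to 562 for the interaction. Leaving out 1 library gave 2989 to 4301, 2519 to 3493, 68 to 820, 13 to 60 and 0 to 171 in the 5 comparisons. The cause was not tested. No call of a member reversed.

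The labels number the replicates 1 to 3 in each group but do not say that a number is shared. Of 18 same-numbered pairs, 0 correlated above 0.1 (r of -0.203 to 0.0527), and 1 library correlated best with its own number. With the replicate number as a block, 18, 19, 2, 0 and 0 members were called in the 5 comparisons. The block ended the calls of Sema5a in GFP-negative cells (limma-trend adjusted p = 0.0696) and of Plxnb3 and Sema5a in GFP-positive cells (0.0576 and 0.0623).

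With 3 libraries a group, the low members (Slit2, Unc5c, Ntn4, Sema5a, Robo2) rest on few reads. Reads of overlapping genes on opposite strands were not separable.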

Other observations

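Efnb1, a transmembrane ephrin, and Ephb4, the receptor of Efnb2, each had the same 2 low libraries in GFP-positive cells. Efnb1 had 151, 348 and 427 normalized counts under the control and 539, 507 and 129 under the SIX2 label there, and 471, 382 and 359 against 535, 506 and 472 in GFP-negative cells. Ephb4 had 251, 323 and 348 against 498, 392 and 168 in GFP-positive cells, and 476, 371 and 380 against 373, 384 and 300 in GFP-negative cells. The lowest library of each GFP-positive group was control replicate 1 and SIX2 replicate 3 for both genes. Neither gene passed limma-trend's test in any of the 5 comparisons. These genes were chosen after their values were seen.

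Among members called in neither plasmid-label comparison, Plxna2 had 1192 to 1335 against 1449 to 1750 normalized counts in GFP-negative and 1334 to 1421 against 1193 to 1956 in GFP-positive cells. Plxnd1, the receptor of Sema3e, had 278 to 315 over the 6 GFP-negative and 286 to 379 over the 6 GFP-positive libraries. Sema7a, a lipid-anchored semaphorin, had 23.5 to 55.7 against 33.7 to 70.0 in GFP-negative and 17.7 to 25.2 against 30.4 to 58.6 in GFP-positive cells, where its groups were apart (log2 difference 0.95 ± 0.39, SE; limma-trend adjusted p = 0.0934).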
